A study of Mus musculus with 6 samples.

Results

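Interferon-induced and antigen presentation genes are described here in primary mouse Sertoli cells, the somatic cells that nurse germ cells in the seminiferous tubule, with and without UXT. UXT, also called ART-27, belongs to the prefoldin-like chaperones. The genes were taken by name alone: families such as Ifi, Ifit, Oas, Gbp, Irf, Stat, Parp and H2, plus 21 single genes of the interferon response. This gave 72 of the 3257 genes analysed, 54 by a family name and 18 as single genes. Psmb9, Psmb10 and B2m, the other 3 single genes, were not analysed here. The wild-type group was 3 libraries of cultures of C57BL/6 background that had received an empty plasmid. The knockout group was 3 libraries of cultures from UXT KO animals on the same background that had received Cre recombinase in a viral construct. Both groups were enriched for Sertoli cells by differential plating and infected in 2 rounds of 24 hours. The labels give neither the age of the animals, the promoter driving Cre, nor whether replicates are separate animals, so p-values measure only the spread between these libraries and that spread may be technical. Uxt itself was not among the genes analysed, so the labels could not be checked by its level.

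Interferons are secreted proteins that warn cells of viral infection. They bind receptors on the cell surface, receptor-bound JAK kinases phosphorylate STAT proteins, and these enter the nucleus with IRF9 to switch on antiviral genes. Interferon-gamma acts through STAT dimers and also raises the machinery that displays peptides on MHC molecules. The testis is an immune-privileged organ, and Sertoli cells are known to mount their own innate antiviral response.

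The table holds only genes that its authors had found to differ between these 2 groups, with a fold of at least 1.5. A call on a single gene is therefore a description and not independent evidence, and 99.6% of all genes in the table passed the test used here. What can be read for the 72 genes is their direction, their size beside the other genes of the table, their spread and their sequence. Fold sizes are those of the authors' deposited table. Values per library are the deposited normalized log2 values, which are damped: their group difference was 0.62 of the log2 fold by the authors' deposited table for the median of the 72 genes. These values compare libraries for 1 gene and not genes with each other, since they are not per length. Library depth is unknown.

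Of the 72 genes, 71 fell in the knockout and 1 rose (limma, adjusted p under 0.05). Lower calls made up 67.5% of all genes in the table and higher calls 32.1%. The authors' deposited table likewise listed 71 of the 72 as lower, beside 67.9% of all its genes. In 70 genes every knockout library lay below every wild-type library, which was so in 65.8% of all genes of the table, and the groups were apart in either direction in 97.5%. Among lower genes the size of the falls lay close to that of the table. The median fold among the lower genes was 2.39 for the 72 and 2.33 for the whole table by the authors' deposited table. A fall of at least 2-fold was listed for 50 of the 72 (69.4%, against 44.4% of all genes) and of at least 3-fold for 21 (29.2%, against 21.6%). A fall of at least 4-fold was listed for 8 (11.1%, against 13.5%). Since genes that rose enter these shares of the table, the lower genes alone are the closer comparison. Among them a fall of at least 2-fold was listed for 70.4% of the 71 and 65.4% of the table's 2210, of at least 3-fold for 29.6% and 31.8%, and of at least 4-fold for 11.3% and 19.9%.

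The libraries' scaling bears on these counts, because most genes in the table were lower. Quantile normalization raised the median difference of all genes by 0.33 on the log2 scale, and giving all columns an equal median raised it by 0.30. After quantile normalization 54 of the 72 were called lower and 1 higher, and lower calls were 98.2% of its calls, against 52.1% for the whole table. With equal medians 51 were lower and 3 higher (94.4%, against 47.9%). Under both rescalings 48 genes were called lower. Epsti1, Ifi27l2a, Ifitm6, Nlrc5 and Stat4 changed sign under 1 of them. Both rescalings were computed on the selected genes of this table alone, most of which were lower. They treat the general fall as a matter of scale, which was not tested. With equal medians every gene's difference rises by the same 0.30, so genes with small damped differences can turn sign. All 10 genes that stood in the lowest 25% of the table by mean value were among the 23 lower genes that lost the call under at least 1 rescaling.

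Promoter sequence did not enter the comparison of the 2 groups. The genes were chosen by names tied to the interferon response, so a high share of interferon motifs can follow from that choice. Such a share says nothing of the knockout. The promoters of 52 of the 72 genes, from 250 bases before to 50 bases after the start of transcription, were found in RefSeq (GRCm38.p6). Mx2, Oas2 and Zbp1 were among those with no entry. These windows were searched on both strands for the core of the interferon-stimulated response element (ISRE) that ISGF3 and IRF proteins bind, which reads GAAA, any 2 bases, then GAAA. They were also searched for TTCNNNGAA, the gamma-activated site (GAS) of STAT dimers, and for CCAAT, a general promoter box. Matches of different motifs may overlap. The ISRE core was present in 27 of the 52 promoters (51.9%). It was present in 5.29% of the 1569 other lower genes of the table, in 3.66% of the 847 other higher genes and in 3.99% of all 27025 genes with a promoter. GAS letters were present in 16 promoters (30.8%), against 9.55% of all genes. CCAAT was present in 25 (48.1%), against 41.1% of all genes. A match is a description of the letters and shows no binding.

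**Figure D1:**
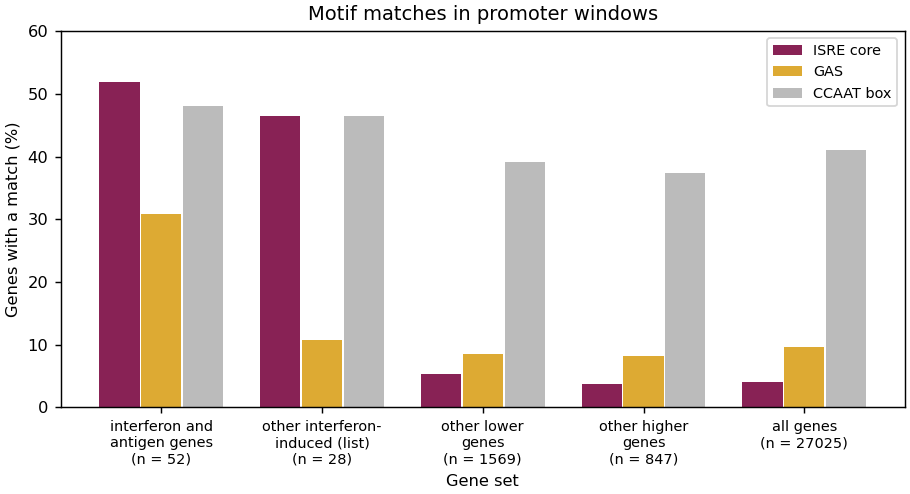
Bars give the percentage of genes with at least 1 match to the ISRE core, GAS or CCAAT in a promoter window, for the interferon-induced and antigen presentation genes, a list of other interferon-induced genes, the other lower and other higher genes of the table, and all genes. The ISRE core stands at 51.9% and 46.4% in the first 2 sets and at 3.66% to 5.29% in the rest.

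Of 33 ISRE matches that ended before the start, in 23 genes, 20 began within 100 bases of it and 32 within 200 bases, with a median of 75 bases. Ifit1, Ifit3 and Ifit3b are shown first because each promoter carries a pair of matches, while none was found in that of Ifit2. They are read 5′ to 3′ on the gene's strand, and capitals mark ISRE letters, here on the reverse strand. The matches began 104 and 85 bases before the start in Ifit1, 156 and 122 in Ifit3 and 188 and 154 in Ifit3b. The stretches of Ifit3 and Ifit3b were identical over 68 bases.
Ifit1, chr19:34640773-34640825, plus strand: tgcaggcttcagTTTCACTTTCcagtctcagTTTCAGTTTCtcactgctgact
Ifit3, chr19:34583361-34583428, plus strand: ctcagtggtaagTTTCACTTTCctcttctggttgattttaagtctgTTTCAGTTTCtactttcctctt
Ifit3b, chr19:34607757-34607824, plus strand: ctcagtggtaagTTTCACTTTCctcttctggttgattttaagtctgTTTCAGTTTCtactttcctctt

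The immunity-related GTPase genes Igtp and Irgm2, neighbours on chromosome 11, are shown because they join both motifs. Capitals mark a GAS and an ISRE core that begins 11 bases after the first base of the GAS. The GAS began 45 bases before the start in Igtp and 75 bases in Irgm2. Over 45 bases the 2 stretches differed by a single substitution, T16C, counted from the 5′ end of the printed stretch with the base of Igtp first.
Igtp, chr11:58199499-58199543, plus strand: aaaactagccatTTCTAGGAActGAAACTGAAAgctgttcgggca
Irgm2, chr11:58214890-58214934, plus strand: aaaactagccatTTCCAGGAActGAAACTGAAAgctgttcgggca

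Isg15, the 2′-5′ oligoadenylate synthetase genes Oas1a and Oas1g, and Ddx60 are shown for repeated ISRE cores. In Isg15 there were 3 overlapping matches, 78, 72 and 66 bases before the start, and in both Oas genes 2 overlapping matches. The Oas1a and Oas1g stretches were identical over 30 bases. In Ddx60 the 2 matches were 34 bases apart, the distance also seen in Ifit3.
Isg15, chr4:156200863-156200908, minus strand: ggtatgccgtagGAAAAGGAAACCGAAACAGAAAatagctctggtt
Oas1a, chr5:120907526-120907557, minus strand: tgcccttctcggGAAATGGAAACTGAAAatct
Oas1g, chr5:120887614-120887643, minus strand: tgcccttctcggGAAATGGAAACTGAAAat
Ddx60, chr8:61928022-61928086, plus strand: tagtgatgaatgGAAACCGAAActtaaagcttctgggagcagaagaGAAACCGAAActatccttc

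The guanylate-binding protein genes on chromosome 3 are shown because all 5 of them, Gbp2, Gbp2b, Gbp3, Gbp5 and Gbp7, had an ISRE match. In Gbp7 a pair of GAS matches, 106 and 87 bases before the start, preceded it. Capitals mark both motifs.
Gbp2, chr3:142620592-142620625, plus strand: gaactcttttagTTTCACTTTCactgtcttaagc
Gbp3, chr3:142559987-142560026, plus strand: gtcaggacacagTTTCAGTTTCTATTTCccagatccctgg
Gbp7, chr3:142530218-142530304, plus strand: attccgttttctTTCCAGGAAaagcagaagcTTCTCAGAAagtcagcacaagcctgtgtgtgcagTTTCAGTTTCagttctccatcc

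By role, the ISRE core was found in 7 of 7 GTPase promoters and 6 of 6 promoters of the sensor group. It was found in 11 of 20 promoters of antiviral effectors, in 2 of 6 of transcription factors and in 1 of 7 of class I antigen presentation. It was in none of the 3 promoters of the remaining genes, the 2 of ADP-ribosyltransferases and the 1 of class II. Irf1 held a GAS and no ISRE, and H2-T23 was the class I gene with an ISRE match. Capitals mark these matches.
Irf1, chr11:53769912-53769944, plus strand: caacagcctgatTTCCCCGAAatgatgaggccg
H2-T23, chr17:36032804-36032837, minus strand: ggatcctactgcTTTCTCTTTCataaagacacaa
Genes with an ISRE match had a median fold of 2.41 by the authors' deposited table (27 genes, 1.6 to 6.95), and the lower genes without one had 2.21 (24 genes, 1.56 to 3.97). The ranges overlap, and this difference was not tested.

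Of the 7 genes grouped by name as transcription factors, 6 fell, with Stat4 turning sign under a rescaling. Stat2, a part of the complex that type I interferons activate, had values of 12.43, 12.45 and 12.56 in wild-type and 11.59, 11.83 and 12.06 in knockout libraries. The groups were 0.37 apart on the log2 scale, and knockout replicate 1 was the lowest. It fell 1.95-fold by the authors' deposited table (difference -0.65 ± 0.11, SE, limma adjusted p = 6.83e-04).

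Irf7, the factor that amplifies interferon production, had values of 11.96, 12.29 and 12.18 in wild-type and 10.97, 11.55 and 11.62 in knockout libraries. Here too knockout replicate 1 stood below the other 2. Irf7 fell 2.02-fold by the authors' deposited table (difference -0.77 ± 0.16, SE, limma adjusted p = 0.00187). Irf8, a factor best known from macrophages and dendritic cells, fell 2.13-fold and Irf1 fell 1.56-fold by the authors' deposited table. Irf8 lost its call under both rescalings and Irf1 with equal medians. Stat4, which carries interleukin-12 signals in lymphocytes, was listed at a 2.66-fold fall by the authors' deposited table. Its library values moved only from 2.99 to 2.87 and its sign turned with equal column medians (difference 0.17).

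The gene that rose was Irf2bp2. It encodes a co-repressor that binds IRF2 and is no interferon regulatory factor itself, and its name alone brought it into the set. Its values were 12.33, 12.22 and 12.33 in wild-type and 12.67, 12.65 and 12.75 in knockout libraries, 1.52-fold higher by the authors' deposited table (difference 0.40 ± 0.07, SE, limma adjusted p = 8.72e-04). No ISRE letters were found in its promoter window. This fold was the smallest among the 72, just above the limit of 1.5 that the table set.

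**Figure D2:**
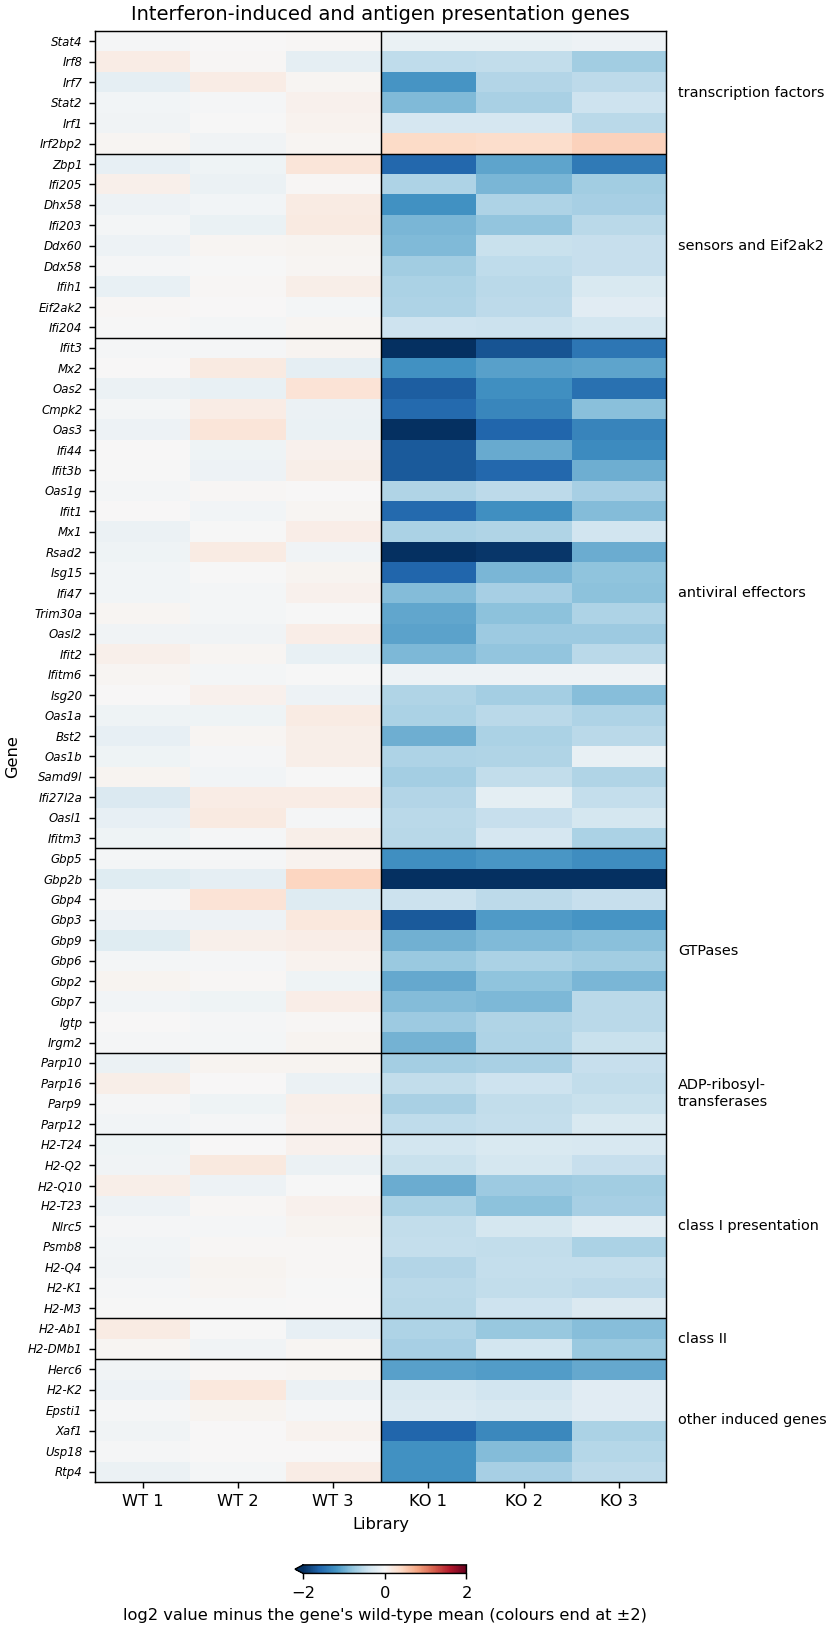
Each row is 1 of 71 genes and each column a library, and colour gives the log2 value minus the gene's wild-type mean, with blue lower and red higher. The 3 knockout columns are blue in every row but Irf2bp2, and knockout replicate 1 is the darkest in many rows; Epsti1, Ifi27l2a, Ifitm6, Nlrc5 and Stat4, all pale, changed sign under a rescaling of the libraries.

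All 9 genes for nucleic acid sensors and the kinase Eif2ak2 fell. Zbp1, a sensor of Z-form nucleic acids that can start necroptosis, had values of 9.64, 9.71 and 10.04 in wild-type and 8.22, 8.74 and 8.39 in knockout libraries. It fell most in this group, 4.65-fold by the authors' deposited table, with the groups 0.90 apart (difference -1.35 ± 0.15, SE, limma adjusted p = 7.50e-05). The RNA helicase sensors fell less. Dhx58 (LGP2) fell 2.59-fold, Ddx58 (RIG-I) 1.79-fold and Ifih1 (MDA5) 1.70-fold by the authors' deposited table.

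Ddx58 showed little spread, at 12.38, 12.39 and 12.44 against 11.71, 11.89 and 11.95. The PKR gene Eif2ak2, whose kinase halts translation on double-stranded RNA, fell 1.6-fold by the authors' deposited table. Among the HIN-200 genes on chromosome 1, which encode DNA-binding proteins, Ifi205 fell 2.98-fold, Ifi203 2.34-fold and Ifi204 1.55-fold by the authors' deposited table. Ddx60, Eif2ak2, Ifih1 and Ifi204 kept their direction but lost the call under at least 1 rescaling.

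The 25 antiviral effector genes made up the largest group, and all fell, although Ifi27l2a and Ifitm6 changed sign under a rescaling. Their median fold was 2.43 by the authors' deposited table, against 2.33 for all lower genes of the table. Ifit3, whose protein works with IFIT1 to bind foreign RNA, fell the most of these. Its values were 10.78, 10.78 and 10.87 in wild-type and 8.69, 9.08 and 9.36 in knockout libraries. The groups were 1.43 apart, and the wild-type values spread over 0.09 while the knockout values spread over 0.67. Ifit3 fell 6.56-fold by the authors' deposited table (difference -1.77 ± 0.15, SE, limma adjusted p = 1.67e-05). Ifit3b, Ifit1 and Ifit2, its cluster neighbours, fell 3.88-fold, 3.41-fold and 2.31-fold by the authors' deposited table. Ifit3 and Ifit3b are near copies, and their separate values are uncertain.

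Rsad2, which encodes the antiviral enzyme viperin, had values of 9.77, 10.02 and 9.78 in wild-type and 7.73, 7.91 and 8.86 in knockout libraries. Knockout replicate 3 stood well above the other 2, so that Rsad2 had the largest range within the knockout of all 72 genes, 1.13 on the log2 scale. It fell 3.03-fold by the authors' deposited table (difference -1.69 ± 0.25, SE, limma adjusted p = 3.16e-04). Its neighbour on chromosome 12, Cmpk2, which supplies nucleotides in mitochondria, fell 3.97-fold by the authors' deposited table. Cmpk2 had the same order of knockout libraries, at 7.67, 7.93 and 8.40.

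Isg15, a ubiquitin-like protein that is attached to other proteins, had values of 12.28, 12.32 and 12.39 in wild-type and 10.75, 11.42 and 11.52 in knockout libraries. Knockout replicate 1 was again lowest. The fall was 2.65-fold by the authors' deposited table. Usp18, the protease that removes ISG15 and restrains the interferon receptor, fell 2.45-fold by the authors' deposited table, from 11.42 ± 0.03 to 10.54 ± 0.32 (SD, n = 3 each, log2 value). Herc6, the ligase that attaches ISG15 in mice, fell 3.49-fold by the authors' deposited table and was tight, at 10.11, 10.20 and 10.22 against 9.09, 9.06 and 9.16.

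The Mx genes are named for dynamin-like GTPases that trap viral particles, but RefSeq lists both mouse genes as transcribed pseudogenes, and C57BL/6 mice are known to carry a defective Mx1. Mx2 fell 6.43-fold and Mx1 3.27-fold by the authors' deposited table. Mx2 values were 7.68, 7.86 and 7.49 in wild-type and 6.47, 6.59 and 6.62 in knockout libraries, with the groups 0.88 apart. Mx1 lost its call after quantile normalization.

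The oligoadenylate synthetase family includes enzymes that make a signal molecule on sensing double-stranded RNA, and all 7 of its genes fell. Oas2 fell 5.38-fold, Oas3 3.98-fold, Oas1g 3.56-fold and Oas1a 2.09-fold by the authors' deposited table. Oas2 had values of 9.77, 9.73 and 10.15 in wild-type and 8.24, 8.66 and 8.39 in knockout libraries. Oas3 had values of 8.50, 8.84 and 8.47 against 6.60, 7.02 and 7.28. Oas1b, which RefSeq lists as a transcribed pseudogene, fell 1.96-fold by the authors' deposited table with its groups only 0.06 apart. Oas1b, Oas1g and Oasl1 lost the call after quantile normalization.

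Ifi44 fell 3.94-fold by the authors' deposited table, and Ifi47, Trim30a, Isg20, Bst2 and Samd9l fell between 1.9-fold and 2.43-fold there. Bst2 encodes tetherin, which holds budding virus at the cell surface, and Isg20 encodes an exonuclease. Ifitm6 was listed at a 2.31-fold fall by the authors' deposited table on library values that moved only from 2.57 to 2.47.

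At the low end of the effectors, Ifitm3, a membrane protein that blocks viral fusion, fell 1.70-fold by the authors' deposited table. Its values were 14.14, 14.19 and 14.33 against 13.66, 13.88 and 13.59, and it lost its call with equal medians (difference -0.22). Ifi27l2a was the sole gene of the 72 whose groups overlapped, with 7.64, 8.08 and 8.09 against 7.35, 7.74 and 7.46. It passed the test over 6 libraries (limma adjusted p = 0.0221). Without wild-type replicate 2 its limma adjusted p was 0.0794, without wild-type replicate 3 it was 0.0838, without knockout replicate 1 it was 0.0784 and without knockout replicate 3 it was 0.0624. It was the sole gene of the 72 that lost its call when a library was left out.

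**Figure D3:**
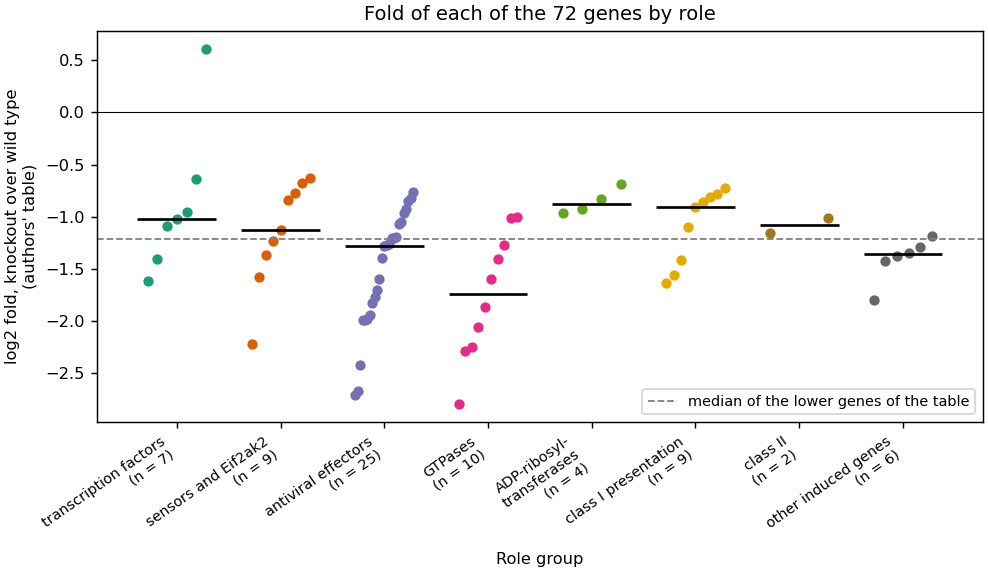
Points are the log2 folds of the 72 genes by the authors' deposited table, by role group, with black bars at group medians and a dashed line at the median of the lower genes of the table (-1.22). GTPases reach the lowest median (-1.74), class I genes (-0.91) and ADP-ribosyltransferases (-0.88) lie above the line, nearer to 0, and Irf2bp2 is the point above 0; the scale is the authors' own, and Epsti1, Ifi27l2a, Ifitm6, Nlrc5 and Stat4 changed sign here under a rescaling.

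The 10 interferon-induced GTPases fell, and their median log2 fold of -1.74 by the authors' deposited table was the lowest of the 8 role groups. This rank did not hold on the library values. There the median difference was -0.83 for GTPases and -0.84 for the remaining genes. After quantile normalization it was -0.49 for GTPases, -0.60 for effectors and -0.66 for the remaining genes. The GTPase proteins coat and break open the vacuoles in which intracellular microbes live. Gbp5, which also promotes inflammasome assembly, had values of 7.91, 7.93 and 8.03 in wild-type and 6.73, 6.80 and 6.71 in knockout libraries. Neither group spread much, and they lay 1.11 apart. By the authors' deposited table Gbp5 fell 6.95-fold, more than any other of the 72 genes (difference -1.21 ± 0.09, SE, limma adjusted p = 9.26e-06).

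Gbp2b had the widest gap of the 72 genes, 3.17 on the log2 scale. Its values were 9.80, 9.87 and 10.47 in wild-type and 6.49, 6.63 and 6.45 in knockout libraries. The fall was 4.89-fold by the authors' deposited table. Gbp3 fell 4.18-fold and Gbp2 2.66-fold by the authors' deposited table. Gbp genes are close copies of each other, so values of single members are uncertain where reads match several.

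The 3 Gbp genes of the second cluster, on chromosome 5, fell as well. Gbp4 fell 4.76-fold, Gbp9 3.65-fold and Gbp6 3.04-fold by the authors' deposited table, although Gbp4 lost its call under both rescalings. The IRG genes fell least here. Igtp fell 2.02-fold and Irgm2 2.0-fold by the authors' deposited table, with Irgm2 values of 11.21, 11.19 and 11.29 against 10.29, 10.62 and 10.78.

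The 4 ADP-ribosyltransferase genes fell by less than 2-fold each: Parp10 by 1.96-fold, Parp16 by 1.90-fold, Parp9 by 1.78-fold and Parp12 by 1.61-fold by the authors' deposited table. PARP9, PARP10 and PARP12 act in antiviral defence, while PARP16 is an enzyme of the endoplasmic reticulum membrane. Parp9 had values of 11.45, 11.39 and 11.57 against 10.82, 10.97 and 11.02. Parp12 lost its call with equal medians and Parp16 under both rescalings.

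**Figure D4:**
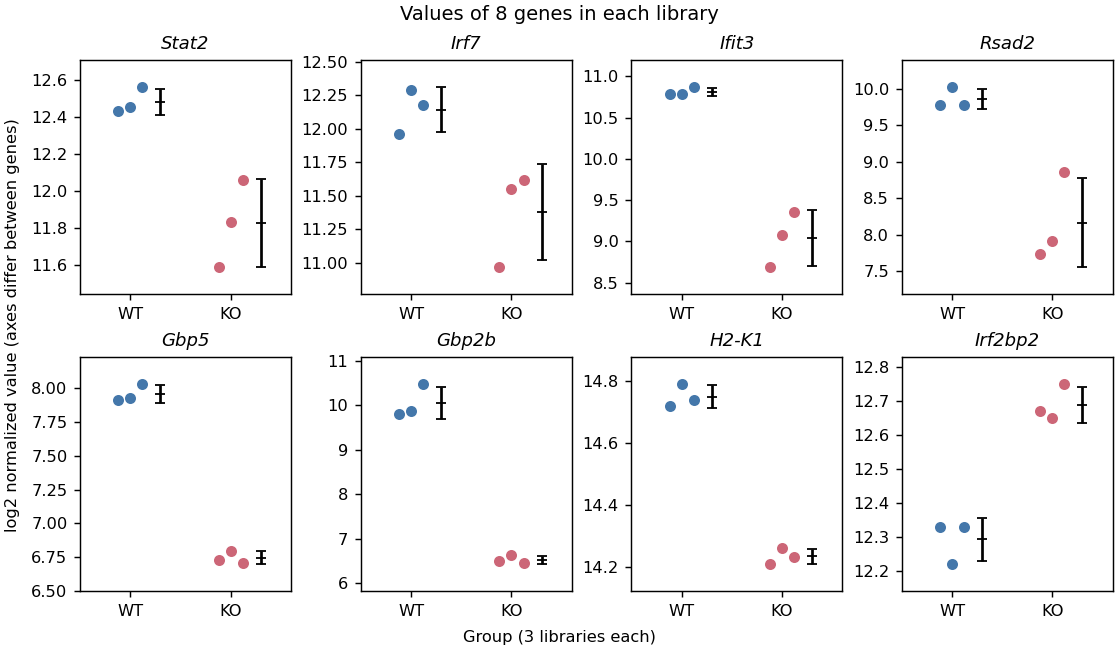
Points give the deposited log2 value of 8 genes in the 3 wild-type (blue) and 3 knockout (red) libraries, and bars the mean ± SD (n = 3), on axes that differ between genes. In each panel the groups are apart, with the knockout higher for Irf2bp2 alone; the spread within the knockout is widest for Rsad2 (SD 0.61).

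Genes that display peptides on MHC class I fell by less than most effectors, with a median log2 fold of -0.91 by the authors' deposited table for 9 genes, of which Nlrc5 changed sign under a rescaling. H2-K1 (gene ID 14972, chromosome 17, 33996012 to 34000619 in GRCm38), the classical class I heavy chain, had values of 14.72, 14.79 and 14.74 in wild-type and 14.21, 14.26 and 14.23 in knockout libraries. It fell 1.72-fold by the authors' deposited table and was among the tightest genes (difference -0.52 ± 0.07, SE, limma adjusted p = 2.68e-04). Psmb8, a catalytic subunit of the immunoproteasome that cuts peptides for class I, fell 1.82-fold by the authors' deposited table, from 10.44 ± 0.05 to 9.91 ± 0.08 (SD, n = 3 each, log2 value).

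Nlrc5, the transactivator of class I genes, was listed at a 1.88-fold fall by the authors' deposited table, with values of 6.90, 6.89 and 6.97 against 6.42, 6.57 and 6.71. Its sign turned after quantile normalization (difference 0.09). Among the non-classical genes, H2-T24 fell 3.11-fold, H2-Q2 2.95-fold, H2-Q10 2.68-fold and H2-T23 2.15-fold by the authors' deposited table, while H2-M3 fell 1.66-fold. H2-T24, H2-Q2 and H2-M3 lost the call under both rescalings. H2-Q4 fell 1.75-fold by the authors' deposited table. H2-K2, next to H2-K1 and listed by RefSeq as a transcribed pseudogene, fell 2.7-fold by the authors' deposited table and lost its call likewise. The H2 genes are near-identical in places, so their separate values are uncertain.

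Among the remaining genes, Xaf1, whose protein promotes apoptosis, fell 2.55-fold by the authors' deposited table. Its values were 12.68, 12.75 and 12.82 in wild-type and 11.16, 11.46 and 12.11 in knockout libraries, with knockout replicate 3 again the highest. Epsti1 was listed at a 2.6-fold fall by the authors' deposited table and changed sign with equal medians (difference 0.03). Rtp4 fell 2.28-fold by the authors' deposited table, from 10.38 ± 0.13 to 9.59 ± 0.36 (SD, n = 3 each, log2 value).

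The 2 class II genes present both fell. H2-Ab1, encoding a chain of the class II molecule that professional antigen-presenting cells show to helper T cells, had values of 11.59, 11.42 and 11.27 against 10.81, 10.67 and 10.57. It fell 2.24-fold by the authors' deposited table, and H2-DMb1, a peptide-loading chaperone chain, fell 2.01-fold. Class II genes and Irf8 are known mainly from leukocytes. Markers of macrophages fell too. The median deviation from the wild-type mean was -0.64, -0.56 and -0.80 in knockout replicates 1 to 3 for the class II genes. It was -0.71, -0.62 and -0.59 for all 72 genes and -1.53, -1.40 and -1.23 for the macrophage markers. Of 24 macrophage markers 22 were in the table, and all 22 fell, beside lower calls for 67.5% of all genes in the table. After quantile normalization 21 of the 22 were lower and with equal medians 20, with none higher. The summed linear value of the 22 markers ranged from 34761 to 44170 in wild-type and from 12567 to 14913 in knockout libraries. Lyz2 alone made up 52.4% to 56.3% of this sum, and without it the range was 15590 to 19538 and 5959 to 7100. Among them Itgam fell 14.7-fold, Fcer1g 9.46-fold and Fcgr1 8.86-fold by the authors' deposited table. The part of macrophages in the lower interferon and antigen presentation genes was not tested, and in bulk RNA fewer cells of a type and less RNA per cell cannot be told apart.

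Markers of other cells moved too. Sertoli cell genes were present in all libraries, with 17 of 25 markers in the table. Of these 16 fell and Mro rose, and their summed linear value ranged from 139742 to 186622 in wild-type and from 59020 to 79682 in knockout libraries. Clu alone made up 69.1% to 74.4% of this sum, and without it the range was 43118 to 49743 and 16967 to 20997. After quantile normalization 11 of them were lower and 1 higher, and with equal medians 10 lower and 2 higher. All 18 endothelial markers in the table, of 20, fell, as did all 8 myoid markers and all 4 fibroblast markers (of 9). Lower calls made up 67.5% of all genes in the table. After quantile normalization 17 endothelial, 6 myoid and 3 fibroblast markers were lower. With equal medians 16, 7 and 3 were lower, and none of these markers was higher under either rescaling. The 3 Leydig markers in the table, of 9, rose, beside higher calls for 32.1% of all genes in the table. Of 13 germ cell markers 3 were in the table, of which 2 fell and 1 rose. Of 6 red blood cell markers 1 was in the table, and it fell. No lymphoid or dendritic marker of 14 was among the genes analysed. Cre was given to knockout cells alone, so the loss of UXT and the construct that carried Cre cannot be told apart.

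The knockout libraries were not alike in these genes. Knockout replicate 1 was the lowest knockout library in 50 of the 72 genes (69.4%), against 38.8% of all genes in the table. The order replicate 1 below 2 below 3 was found in 36 of the 72 genes, against 25.4% of all genes. Both shares of the table include genes that rose, in which the lowest knockout library is the least changed. The median log2 value over the whole table was 8.82, 8.88 and 8.91 in knockout replicates 1 to 3. Genes share libraries, so these counts are a description of 3 libraries. The median SD was 0.094 in wild-type and 0.14 in knockout libraries for the 72 genes, and 0.093 and 0.10 for all genes. The SD was larger in the knockout for 49 of the 72 genes (68.1%), against 54.6% of all genes. The median SD was 0.11 in wild-type and 0.20 in knockout libraries for antiviral effectors, and 0.064 and 0.082 for the class I group.

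**Figure D5:**
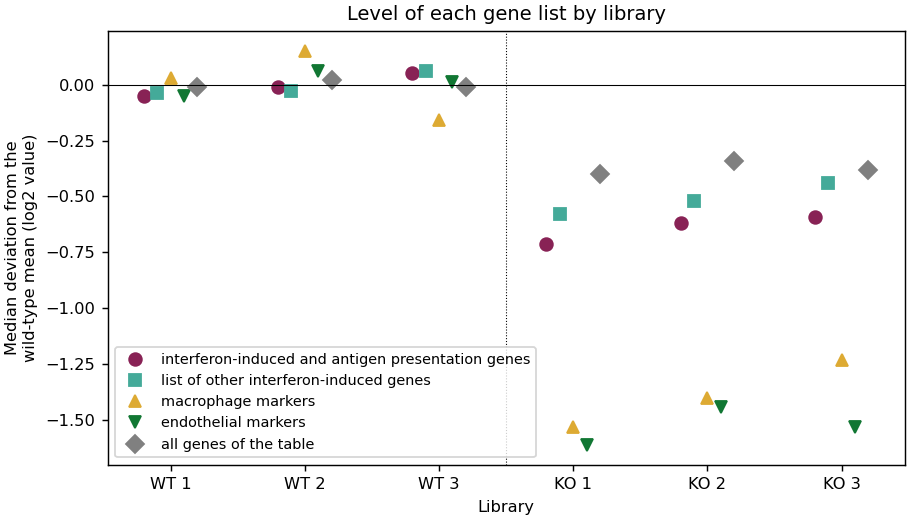
For each library, points give the median over a gene list of the log2 value minus the gene's wild-type mean. The 72 genes lie at -0.71, -0.62 and -0.59 in the knockout libraries, below all genes of the table (-0.40, -0.34 and -0.38) and above macrophage markers (-1.53, -1.40 and -1.23), which are damped to another extent. All genes of the table include those that rose. Among lower genes alone the median fold was 2.39 for the 72 and 2.33 for the table by the authors' deposited table.

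Other genes of the pathway came from 5 lists chosen by function. Of 61 other interferon-induced genes 31 were in the table, and all 31 fell, beside lower calls for 67.5% of all genes in the table. After quantile normalization 14 of them were called lower and none higher, and with equal medians 15 lower and 2 higher. In the whole table of 3257 genes 1143 were lower and 1049 higher after quantile normalization. With equal medians 1024 were lower and 1116 higher. The GTPase gene Iigp1 fell 4.84-fold, Uba7, the activating enzyme for ISG15, 4.65-fold and the death ligand gene Tnfsf10 4.98-fold by the authors' deposited table, of which Tnfsf10 lost its call under both rescalings. The ISRE core was present in 13 of the 28 promoters found for this list (46.4%). The chemokine gene Cxcl10, named after its values were seen, had the same knockout order as Rsad2, at 8.22, 8.51 and 9.26 against 9.60, 9.77 and 9.71.

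The upstream steps were thinly represented. Of 21 genes for interferons, receptors and JAK kinases 3 were in the table. Ifnar2, a chain of the type I interferon receptor, had values of 13.21, 12.96 and 13.19 against 12.70, 12.74 and 12.42 and fell 1.68-fold by the authors' deposited table. Jak3, a kinase of lymphoid cytokine receptors, fell 2.41-fold and Ifnlr1, a receptor chain for interferon-lambda, 2.16-fold by the authors' deposited table. The interferon genes on this list were not among those analysed. Of these 3 genes Jak3 alone kept a call under a rescaling, with equal medians, and Ifnlr1 turned sign after quantile normalization (difference 0.06). Of 15 negative regulators 1 was in the table, the phosphatase gene Ptpn6, and it fell 6.53-fold by the authors' deposited table.

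Of 26 sensors and adaptors outside the 72 genes 9 were in the table, with 7 lower and 2 higher. Under each rescaling 2 were lower and 2 higher. Tlr8 fell 5.31-fold, Ticam2 3.70-fold and Tlr7 3.56-fold by the authors' deposited table. Ticam2 lost its call under both rescalings and Tlr7 after quantile normalization. The DNA sensor gene Mb21d1 (cGAS) rose 1.79-fold, at 7.36, 7.38 and 7.56 against 7.90, 7.68 and 7.88, and the adaptor gene Traf3 rose 1.56-fold by the authors' deposited table. Of 28 antigen processing genes 10 were in the table, with 9 lower and 1 higher, beside the same shares of the whole table. Under each rescaling 5 of these 10 were lower and 1 higher. The co-stimulator gene Cd86 fell 8.02-fold, the cathepsin gene Ctss 4.39-fold and Tapbp, which loads peptides on class I, 2.33-fold by the authors' deposited table. Cd1d1, a class I-like molecule that presents lipids, rose 1.81-fold by the authors' deposited table, at 8.93, 8.89 and 8.92 against 9.41, 9.37 and 9.43.

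Many of the 72 genes are neighbours. By RefSeq coordinates 43 of them fell into 14 clusters with gaps of at most 500 kb, among them the Gbp genes on chromosome 3 (142496934 to 142638008 in GRCm38), the Oas genes on chromosome 5 (120730333 to 120907544) and the Ifit genes on chromosome 19 (34550550 to 34650009). Within each cluster all these genes fell, although Stat4 and Ifitm6 turned sign under a rescaling. The sizes differed from gene to gene, from 2.41-fold to 6.95-fold in the Gbp cluster and from 2.31-fold to 6.56-fold in the Ifit cluster by the authors' deposited table. On chromosome 1 the HIN-200 gene Mndal, between Ifi204 and Ifi203 and named after its values were seen, fell 1.78-fold by the authors' deposited table.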

How the data were processed

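Per the submitters' processing notes, FastQC, STAR, DESeq2 and the mm10 build were used; versions, read counting, strand use and annotation are not given in the sources used here. What the authors deposited is 1 table of selected genes (fold of at least 1.5, largest adjusted p-value 0.0499). Per the file headers it holds a signed fold score, a log2 fold change, p-values and adjusted p-values, and a normalized log2 value per library, whose transformation is not given in the sources used here. Of 3261 rows, 4 with a duplicated symbol were left out.

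Some genes that are counted in the totals are not reported here by name. Groups came from the sample titles. All 3257 genes were fitted with limma 3.58.1 (R 4.3.3, mean-variance trend, no covariate) on the deposited log2 values, with Benjamini-Hochberg adjustment over all genes and a call at an adjusted p under 0.05. The fit was tested on simulated data. Depth is unknown, so no counting interval was computed.

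The genes, lists and role groups were chosen with earlier results of these data known. Named were the 4 largest and the smallest change of each role group, genes of another direction or with overlapping groups, and up to 3 per list; other genes of the 72 were added to describe families. H2-K2 fell outside the class I name pattern and was counted with the remaining genes. Promoters came from RefSeq (GRCm38.p6) by gene ID. Alternatives covered scaling, variance model, filter, threshold, left-out libraries and a replicate block.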

Additional observations from a re-analysis of the deposited data

How the results depend on the processing

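Rescaling the libraries was the choice that moved the most values. After quantile normalization the table's lower calls went from 2200 to 1143, and with equal column medians to 1024, while higher calls among the 72 genes went from 1 to 3 with equal medians. The median difference of the 72 genes went from -0.68 to -0.44 with quantile normalization and -0.38 with equal medians. By role, quantile normalization and equal medians gave medians of -0.27 and -0.27 for transcription factors, -0.36 and -0.30 for sensors, -0.60 and -0.49 for effectors and -0.49 and -0.53 for GTPases. They gave -0.33 and -0.20 for ADP-ribosyltransferases, -0.32 and -0.21 for class I and -0.44 and -0.37 for class II genes. Equal medians gave -0.54 for the remaining genes. The sign turned for Epsti1 (0.03), Ifitm6 (0.19) and Stat4 (0.17) with equal medians, and for Ifi27l2a (0.02) and Nlrc5 (0.09) with quantile normalization. Lower calls went from 9 to 5 for class I genes under each rescaling, and with equal medians from 6 to 3 for transcription factors, whose higher calls went from 1 to 2, and from 4 to 2 for ADP-ribosyltransferases. They went from 31 to 14 and 15 for the list of other interferon-induced genes, from 7 to 2 for sensors and adaptors, from 9 to 5 for antigen processing and from 3 to at most 1 for receptors and kinases. Equal medians took Sertoli markers from 16 to 10, and each rescaling took germ cell markers from 2 to 1. Equal medians moved every gene by the same amount, and both rescalings used the selected genes alone. Whether the general fall is a matter of scale was not tested. Without the lowest 25% of genes by mean value the medians were -0.74 for the 72 genes and -0.61 for transcription factors, since fewer genes were fitted.

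Leaving out each library in turn gave medians of -0.69 to -0.59 for the 72 genes, -0.61 to -0.49 for transcription factors and -0.67 to -0.48 for sensors, and 70 to 71 lower calls. With a replicate block 71 of the 72 genes were called lower, as without it. Deviations of same-numbered libraries from their group means correlated at r = 0.177, -0.073 and -0.004. Those of differently numbered libraries correlated at -0.203 to 0.196. With 3 libraries per group these values cannot tell whether the numbers pair the libraries. Under alternatives other than the rescalings, lower calls among the 72 genes stayed between 61 and 71. The unknown depth and 3 libraries per group limit all values, and genes outside the table cannot be called unchanged.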

Other observations

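Close relatives of the 72 genes that carry other names were looked up by their aliases after their values were seen. AI607873 (alias IFI207), a HIN-200 gene on chromosome 1 (173723424 to 173741831 in GRCm38) beside Ifi204, rose where its neighbours fell. Its values were 8.97, 8.87 and 9.07 in wild-type and 9.48, 9.18 and 9.71 in knockout libraries, 1.81-fold higher by the authors' deposited table (limma adjusted p = 0.00644). Pyhin1, a further gene of this family, was listed at a 2.37-fold fall by the authors' deposited table with groups only 0.01 apart, and Irgc1, a relative of Irgm2, at a 3.29-fold fall. Both turned sign, Pyhin1 to 0.02 and 0.13 under both and Irgc1 to 0.09 with equal medians, while AI607873 stayed higher at 0.82 and 0.78. The HIN-200 genes share long stretches of sequence, so their separate values are uncertain.

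For Gbp2b the library values moved by more than the authors' fold. Its library difference of -3.52 was 1.54 times the log2 fold of -2.29 by the authors' deposited table, the highest such ratio of the 3257 genes. The ratio was above 1 in 6 genes in all, and Rsad2 (1.06) was the other among the 72.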
